A study of Mus musculus with 12 samples.

Results

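The integrated stress response and the aminoacyl-tRNA synthetase genes induced by it were followed in RNA sequencing of cultured mouse B cell precursors, proliferating cells at the stage of immunoglobulin gene rearrangement. The 37 genes were taken by symbol from a table of 47069 genes. They comprise 5 transcription factors, 7 feedback and signalling genes, 9 enzymes of amino acid synthesis and one-carbon metabolism, 5 amino acid transporter genes and 11 cytosolic tRNA synthetases. In the integrated stress response, kinases that sense lack of amino acids, unfolded proteins, double-stranded RNA or lack of heme phosphorylate the translation factor eIF2α. Most translation then slows, while the mRNA of the transcription factor ATF4 is translated more. ATF4 and its partners, the C/EBP proteins and CHOP, bind composite promoter elements of genes for amino acid synthesis, uptake and tRNA charging, and cells with high demand for protein synthesis use the same genes to keep amino acid supply in step with translation.

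There were 12 libraries in 4 groups of 3, all grown from hematopoietic stem cell cultures in Iscove's medium with IL7. The β-catenin group (numbers 244, 255 and 262; genotype bCat-lox(Ex3)) came from Mb1-Cre mice with the Catnb lox(ex3) allele, in which the recombinase, driven by the promoter of a B lineage gene, removes exon 3 of Ctnnb1 and with it the GSK3 phosphorylation sites needed for β-catenin degradation. The inhibitor group (242, 249 and 251; control genotype) was kept overnight with 40 nM LY2090314, an inhibitor of GSK3, and was not sorted. The untreated group (242, 249 and 251) consisted of unsorted control cells kept without the inhibitor. The sorted controls (242, 249 and 251; control genotype, no inhibitor) were, like the β-catenin group, sorted on the B lineage surface protein B220 and lysed directly. Whether control mice had the Mb1-Cre transgene, and whether each library came from a separate animal, is not stated in the labels, so p-values measure the spread between these libraries, which may be technical. GSK3 has many substrates other than β-catenin, so the inhibitor and the allele are different interventions. Below, values per library follow the order of the numbers given here.

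Values are FPKM (fragments per kilobase of transcript per M fragments), which the authors deposited, and each library held between 31.9 and 49.8 M counted fragments. Deletion of exon 3 cannot be read from values per gene: Ctnnb1 stood between 225 and 331 FPKM over all 12 libraries. The B220-sorted β-catenin libraries differed among themselves and from their controls in cell type markers. Summed over 10 markers of B cell precursors they held 42.9, 1489 and 1135 FPKM, against 5057 to 5329.6 FPKM in the sorted controls. Summed over 8 markers of NK and innate lymphoid cells they held 3474, 728 and 1459 FPKM, against 19.5 to 42.6 FPKM in the sorted controls, and over 9 markers of T cells 836, 349 and 519 FPKM, against 45.6 to 58.3 FPKM in the sorted controls. In limma 3 of the 10 B cell precursor markers fell, and 8 of 8 NK and 7 of 8 T cell markers that could be tested rose. Among all genes tested there, 17.7% fell and 18.6% rose. Genes were tested if they reached 1 FPKM in at least 3 of the 6 libraries. A marker could therefore enter through the β-catenin libraries alone, where it was high, and such markers were not counted apart. By the sums above, library 244 had little RNA of the labelled cell type. With the inhibitor, the B cell precursor markers summed to 896 to 1677 FPKM, against 4707 to 6701 FPKM in untreated cells, and the T cell markers to 252 to 384 FPKM, against 103 to 128 FPKM in untreated cells. There 9 of the 10 B cell precursor markers fell, and 3 of the 5 T cell markers tested rose, where 9.6% of all genes tested fell and 8.47% rose. In each group, every marker of these 3 lists was above 0 in at least 1 library. Among the unsorted cells, the libraries numbered 249 stood apart: 7 neutrophil markers summed to 6927 FPKM with the inhibitor and 6996 FPKM without it, against at most 439 FPKM in the other unsorted libraries. In bulk RNA, fewer cells of a type and less RNA per cell cannot be told apart. The part of these other cells in the results that follow was not tested. Counts of calls are given without these libraries, and values without them for some genes only.

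Promoters are shown because many ATF4 targets carry a composite element near their start. Windows from 250 bases before to 50 bases after the transcription start, from RefSeq (GRCm38.p6), were used for 28 of the 37 genes. The core of the C/EBP-ATF composite element, TGATGNAA, was searched on both strands. No other motif was searched. It occurred in 11 of these 28 genes (39.3%), against 1218 of all 27024 RefSeq genes used (4.51%). Counted per window, the shares were 11 of 32 (34.4%) and 1303 of 32850 (3.97%). The sequences below run 5′ to 3′ on the strand of the gene, with the match in capitals. On the strand opposite to the gene the motif reads TTNCATCA.
Chac1, chr2:119350992-119351228, plus strand: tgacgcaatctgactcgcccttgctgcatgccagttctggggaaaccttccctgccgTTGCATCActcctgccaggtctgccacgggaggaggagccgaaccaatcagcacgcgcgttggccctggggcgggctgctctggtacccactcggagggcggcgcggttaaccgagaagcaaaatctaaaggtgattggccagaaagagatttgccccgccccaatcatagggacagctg
Asns, chr6:7693214-7693243, minus strand: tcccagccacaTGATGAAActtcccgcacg
Trib3, chr2:152344033-152344057, minus strand: ttagctcaggtTTACATCAgccggg
Pck2, chr14:55540137-55540196, plus strand: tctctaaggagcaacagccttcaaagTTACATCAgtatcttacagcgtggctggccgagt
Vldlr, chr19:27216809-27216838, plus strand: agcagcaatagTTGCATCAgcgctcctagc
Nupr1, chr7:126625562-126625591, minus strand: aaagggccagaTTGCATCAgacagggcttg
Slc7a11, chr3:50443627-50443705, minus strand: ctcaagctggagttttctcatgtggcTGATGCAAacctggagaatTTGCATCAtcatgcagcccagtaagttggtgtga
Gars, chr6:55037945-55038000, plus strand: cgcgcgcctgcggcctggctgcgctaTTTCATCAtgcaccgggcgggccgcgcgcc
Iars, chr13:49682126-49682155, plus strand: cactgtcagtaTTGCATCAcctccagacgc
Tars, chr15:11399666-11399699, minus strand: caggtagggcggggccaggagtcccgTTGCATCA
Yars, chr4:129189895-129189924, plus strand: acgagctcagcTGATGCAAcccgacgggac
Among the synthetases 4 of the 6 genes with a window had a match, among feedback genes 3 of 6, among the enzymes 2 of 7, among the transporters 1 of 4 and among the transcription factors 1 of 5. In the lists set beside them, the motif stood in 5 of 14 further ATF4 targets, in 0 of the 5 remaining cytosolic synthetases and in 0 of 14 mitochondrial synthetases with a window. It also stood in 1 of 11 genes for eIF2 kinases and eIF2 machinery. In genes of the IRE1 and ATF6 arms of the unfolded protein response it was 1 of 15, and in NRF2 targets 0 of 6. Slc7a11 held a pair of matches facing each other. Asns had the match on its own strand, 23 bases before the RefSeq start, and Chac1 on the other strand at -193. Positions depend on the start used: in GENCODE M21 the genes Asns, Vldlr and Nupr1 begin further upstream and include these matches. The Trib3 match lies before the gene there. A match is a description of letters, not a bound site, and a window without one says nothing about the factor.

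**Figure D1:**
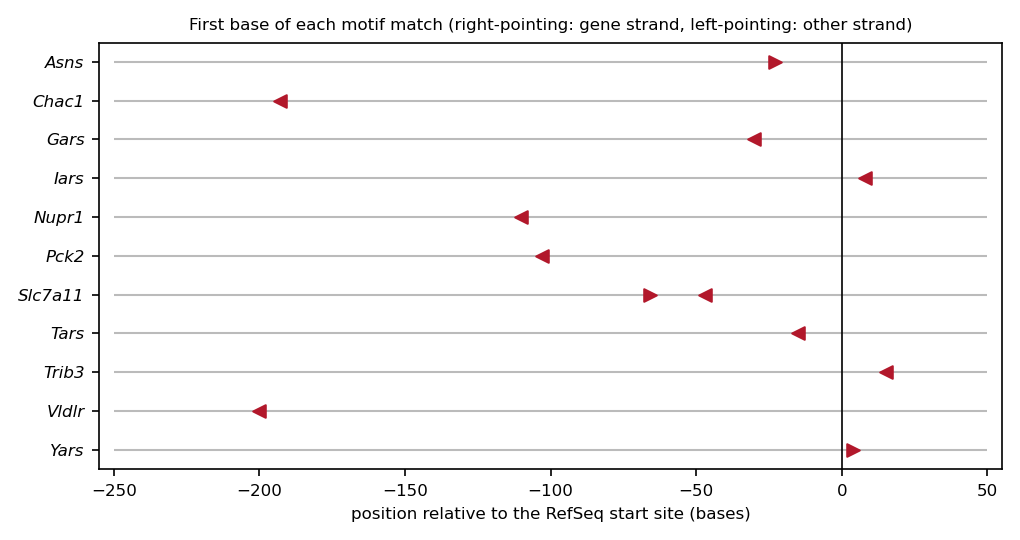
Position of the first base of each match to the motif (x axis, bases from the RefSeq start site, which is at the vertical line) in the 11 genes that had one (rows, with grey lines for the searched window). Triangles point right for matches on the strand of the gene and left for the other strand. Matches run from -200 in Vldlr to 15 in Trib3.

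Levels of these genes spanned a wide range even in the sorted controls. Phgdh, which commits glycolytic carbon to serine synthesis, was highest with a mean of 514 FPKM, followed by Atf4 with 203 FPKM. The median of the 37 group means was 61.0 FPKM, and 27 of the genes averaged at least 10 FPKM. In every library 30 genes reached 1 FPKM. Aldh1l2, a mitochondrial folate enzyme, stayed below 1 FPKM throughout, with 0, 1 and 0 counted fragments in the β-catenin libraries, 19, 17 and 13 with the inhibitor, 0, 4 and 6 in untreated cells and 18, 7 and 1 in the sorted controls. The other 6 genes were above 1 FPKM in some libraries only. Among the sorted controls the synthetases were the steadiest class: the highest of 3 libraries was 1.06 to 1.24 times the lowest over the 11 genes. Chac1, Trib3 and Cth differed 4.75, 2.61 and 2.23 times among the same libraries, and 26 of the 37 genes had their lowest value of the sorted controls in number 249. In untreated cells number 242 was highest for 24 of the 37 genes.

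The first comparison asked what stabilised β-catenin did to these genes in B220-sorted cells. Genes of amino acid synthesis, the transporter Slc7a5 and most synthetases were lower in the β-catenin libraries, while the stress-inducible factor Atf5 and the feedback gene Sesn2 were higher. Of the 37 genes, 33 reached 1 FPKM in at least 3 of the 6 libraries and were tested. With limma and a Benjamini-Hochberg adjusted p under 0.05 over all genes, 19 fell, 3 rose and 11 did not pass. Of these calls, Cebpb (higher) and Cth (lower) reached 1 FPKM in no library of the lower group, so they entered the test only through the group where they were high and had to differ. Without this pair, 18 fell and 2 rose of 31 genes. Over all 12813 genes tested, 36.3% passed, 17.7% lower and 18.6% higher. The median difference of log2(FPKM + 1) was -0.46 over the 33 genes and -0.02 over all genes tested. All 3 β-catenin libraries lay below all sorted controls for 22 of the 33 genes and above them for 4, against 29.4% and 26.5% of all genes tested. Without library 244 the calls were 19 lower and 2 higher of 32 genes tested, where 21.4% of all genes tested were lower and 19.6% higher. Without sorted control 251, 1535 genes in all passed, against 4656 with all 6 libraries, and 5 of the stress response genes were lower and 1 higher. Without sorted control 242 there were 6 lower, and without sorted control 249 or β-catenin library 262 there were 9. In these fits 1974, 2004 and 2061 genes in all passed. The calls of Atf4, Sesn2, Asns, Psat1, Slc7a5 and Gars held in every alternative that could be fitted. Differences below are of mean log2(FPKM + 1), with the standard error from limma. This scale understates the change of genes near or below 1 FPKM.

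**Figure D2:**
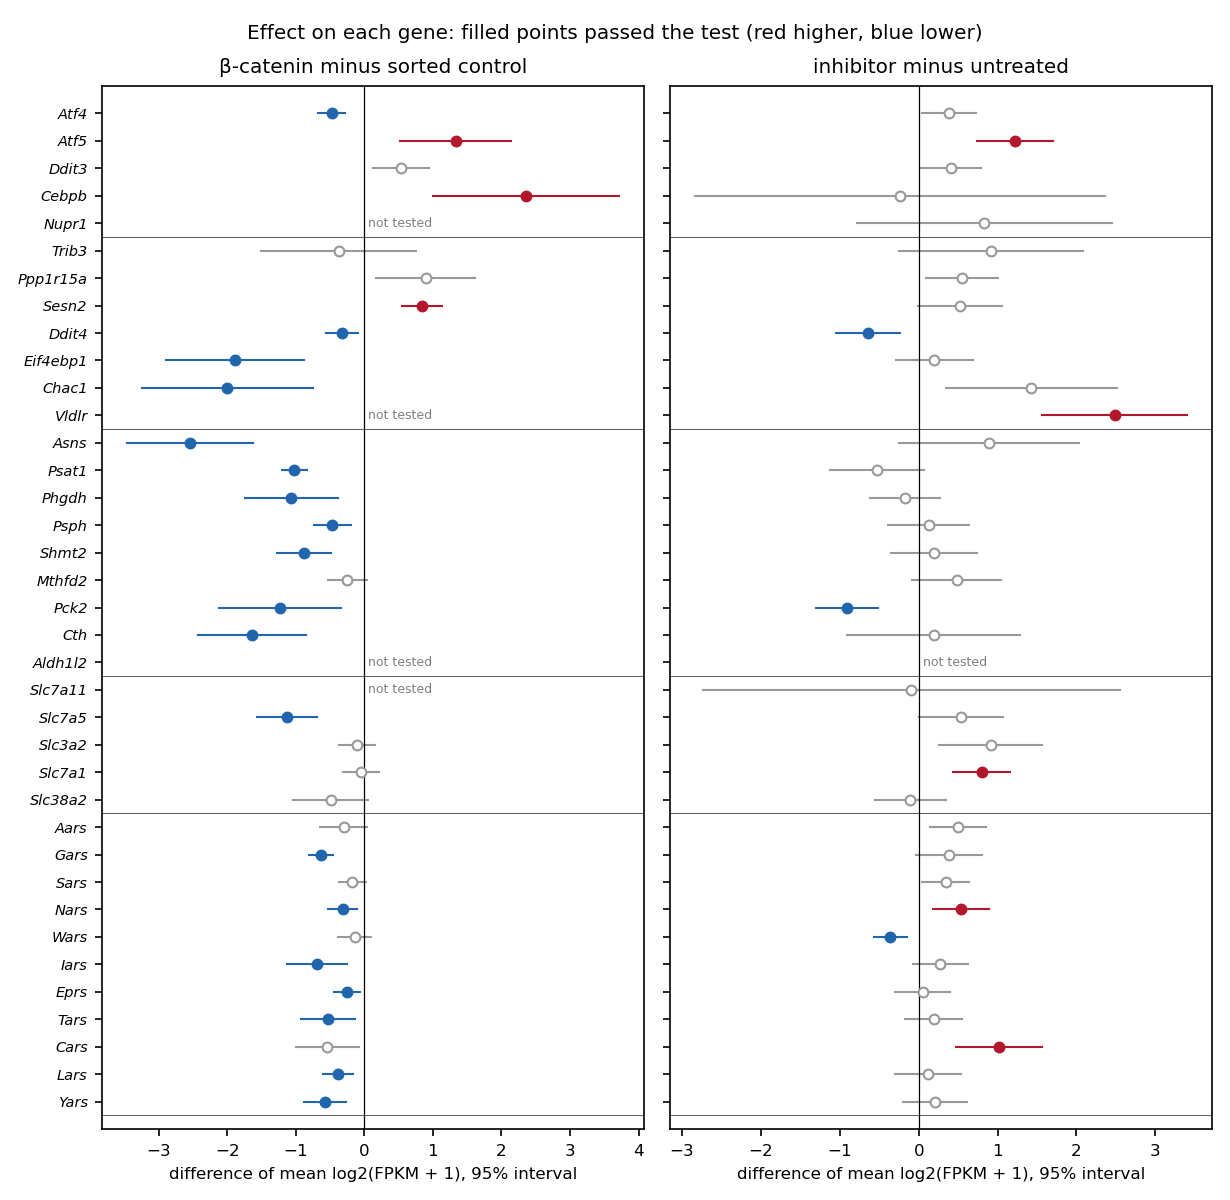
Difference of mean log2(FPKM + 1) with its 95% interval (x axis) for the 37 genes (rows, in the order transcription factors, feedback and signalling, enzymes, transporters, synthetases), β-catenin minus sorted control on the left and inhibitor minus untreated on the right. Filled points passed the test, 22 on the left and 8 on the right.

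Among the transcription factors, Atf4 mRNA fell, while Atf5 rose. Atf4 had 135, 152 and 151 FPKM in the β-catenin libraries, against 212, 198 and 199.6 FPKM in the sorted controls. The groups did not overlap, and the difference was -0.48 ± 0.08 (limma adjusted p = 0.00801). The amount of ATF4 protein is set largely by translation and was not measured. Atf5, a paralogous factor whose mRNA is also translated under stress, had 13.1, 21.1 and 33.1 FPKM in the β-catenin libraries, against 9.46, 7.53 and 6.45 FPKM in the sorted controls. All 3 β-catenin libraries were higher, by 1.33 ± 0.33 (limma adjusted p = 0.0261, a call lost in 7 of 13 alternatives). Without number 244 the Atf5 difference was 1.65 (limma adjusted p = 0.00275). Cebpb, a C/EBP factor abundant in myeloid cells, had 14.2, 2.68 and 2.94 FPKM in the β-catenin libraries, against 0.174, 0.24 and 0.125 FPKM in the sorted controls, a difference of 2.36 ± 0.56 (limma adjusted p = 0.0223, and 0.0508 with no filter). It was tested only because all 3 β-catenin libraries reached 1 FPKM. Library 244, where Cebpb was highest, also held the most neutrophil marker RNA of the sorted libraries (518 FPKM over 7 markers, against 11.4 and 28.2 FPKM in the other β-catenin libraries and at most 10.2 FPKM in the sorted controls). The part of such cells in the Cebpb value was not tested, and without 244 the gene had too few libraries above 1 FPKM to be tested. Ddit3, which encodes CHOP, had 21.8, 18 and 27.6 FPKM in the β-catenin libraries, against 16.0, 15.5 and 13.6 FPKM in the sorted controls. These ranges did not overlap, but the difference of 0.53 ± 0.17 missed the threshold (limma adjusted p = 0.0522). Nupr1, a small stress-induced chromatin protein, stayed between 0 and 0.463 FPKM in all 6 sorted libraries and was not tested.

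The feedback and signalling genes split. Sesn2, an inhibitor of mTORC1 that senses leucine, had 5.48, 5.83 and 5.62 FPKM in the β-catenin libraries, against 2.72, 2.93 and 2.47 FPKM in the sorted controls. It rose by 0.85 ± 0.12 with very little spread in either group (limma adjusted p = 0.0056). Ppp1r15a, the stress-induced subunit (GADD34) of the phosphatase that resets eIF2α, had 25.5, 14.3 and 22.2 FPKM in the β-catenin libraries, against 9.21, 15.1 and 7.9 FPKM in the sorted controls. One sorted control lay inside the β-catenin range, and the difference of 0.90 ± 0.30 did not pass (limma adjusted p = 0.0591). Chac1, which degrades glutathione and is among the most inducible targets of ATF4 and CHOP, had 0.143, 1.02 and 0.748 FPKM in the β-catenin libraries, against 7.41, 1.95 and 9.27 FPKM in the sorted controls. Even the lowest sorted control lay above the highest β-catenin library, and Chac1 fell by 1.995 ± 0.51 (limma adjusted p = 0.0282). In counted fragments these were 11, 83 and 41 in the β-catenin libraries, against 602, 133 and 485 in the sorted controls. The Chac1 call was lost in 5 of 12 alternatives, among them voom on counted fragments (adjusted p = 0.0607). Eif4ebp1, the translation repressor that mTORC1 inactivates and ATF4 induces, had 10.3, 32.4 and 26.9 FPKM in the β-catenin libraries, against 94.8, 68.3 and 78.1 FPKM in the sorted controls, and fell by 1.88 ± 0.41 (limma adjusted p = 0.0184). Library 244 was the lowest, and without it the Eif4ebp1 difference was -1.40 (limma adjusted p = 0.00129). The Eif4ebp1 call was lost when any 1 of the sorted controls was left out (limma adjusted p of up to 0.0729). Ddit4, another inhibitor of mTORC1 (REDD1), had 50.3, 46.0 and 46.3 FPKM in the β-catenin libraries, against 60.7, 65.2 and 53.8 FPKM in the sorted controls, a small fall by 0.32 ± 0.10 (limma adjusted p = 0.0429). Trib3, a pseudokinase that restrains ATF4, had 3.2, 6.05 and 10.9 FPKM in the β-catenin libraries, against 12.8, 4.89 and 8.36 FPKM in the sorted controls, and the ranges overlapped. Its difference of -0.37 ± 0.46 did not pass (limma adjusted p = 0.561), and it was 0.003 without library 244. Vldlr, a lipoprotein receptor induced by ATF4, had 0.626, 9.76 and 3.88 FPKM in the β-catenin libraries, against 0.407, 0.192 and 0.441 FPKM in the sorted controls. All 3 β-catenin libraries were above the controls, but only 2 of the 6 reached 1 FPKM, so Vldlr was not tested.

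Of the enzymes, 7 of 8 tested fell (Cth among them, tested through the sorted controls alone) and 0 rose in limma (0 also at an unadjusted p under 0.05 and with voom). Asns, which makes asparagine and carries the best-known amino acid response element, had 5.78, 2.06 and 2.91 FPKM in the β-catenin libraries, against 28.8, 15.8 and 31.1 FPKM in the sorted controls. Every β-catenin library was far below every control, and Asns fell by 2.54 ± 0.38 (limma adjusted p = 0.00605). The 3 steps of serine synthesis all fell. Phgdh, the first, had 159, 338 and 273 FPKM in the β-catenin libraries, against 574, 459 and 509.6 FPKM in the sorted controls, a fall by 1.06 ± 0.28 (limma adjusted p = 0.0307). That call was lost in 5 of 13 alternatives. Psat1, the next step, had 74.6, 68.2 and 66.1 FPKM in the β-catenin libraries, against 141, 138 and 147 FPKM in the sorted controls. With tight replicates in both groups it had the smallest adjusted p of all 33 genes tested, with a fall by 1.02 ± 0.08 (limma adjusted p = 0.00122). Psph, the last step, had 26.1, 24.7 and 25.5 FPKM in the β-catenin libraries, against 37.9, 30.4 and 38.8 FPKM in the sorted controls, a fall by 0.46 ± 0.11 (limma adjusted p = 0.0245). Shmt2, which moves the serine carbon into mitochondrial folate, had 71.4, 101 and 95 FPKM in the β-catenin libraries, against 181, 143 and 169 FPKM in the sorted controls, a fall by 0.88 ± 0.16 (limma adjusted p = 0.0107). Mthfd2, the next enzyme in that folate pathway, had 84.2, 92.2 and 100.4 FPKM in the β-catenin libraries, against 119.6, 95.1 and 115 FPKM in the sorted controls. These ranges overlapped, and the Mthfd2 difference of -0.25 ± 0.12 did not pass (limma adjusted p = 0.146). Cth, the last enzyme of cysteine synthesis from methionine, had 0.0225, 0.786 and 0.601 FPKM in the β-catenin libraries, against 3.95, 2.11 and 4.7 FPKM in the sorted controls, a difference of -1.64 ± 0.32 (limma adjusted p = 0.0133, and 0.0323 with no filter). Only the sorted controls reached 1 FPKM, so Cth was tested through the group where it was high. In counted fragments Cth stood at 1, 37 and 19 in the β-catenin libraries, against 185, 83 and 142 in the sorted controls. Pck2, mitochondrial phosphoenolpyruvate carboxykinase, had 13.2, 37.6 and 29.2 FPKM in the β-catenin libraries, against 65.2, 52.6 and 58.2 FPKM in the sorted controls, a fall by 1.22 ± 0.37 (limma adjusted p = 0.0438). Library 244 was again the lowest, and without it the Pck2 difference was -0.80 (limma adjusted p = 0.00619). The Pck2 call was lost in 6 of 13 alternatives, among them leaving out any 1 of the sorted controls.

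Of the 4 transporter genes tested, 1 fell. Slc7a5, the light chain of the LAT1 exchanger for leucine and other large amino acids, had 42.8, 66.8 and 58.7 FPKM in the β-catenin libraries, against 136, 107 and 123 FPKM in the sorted controls, and fell by 1.13 ± 0.18 (limma adjusted p = 0.00761). Its partner chain Slc3a2 had 103, 107 and 125 FPKM in the β-catenin libraries, against 126, 109 and 126 FPKM in the sorted controls, with overlapping ranges and a difference of -0.11 ± 0.11 (limma adjusted p = 0.467). The arginine and lysine transporter Slc7a1 had 56.2, 59.6 and 60.1 FPKM in the β-catenin libraries, against 69.8, 55.2 and 57.9 FPKM in the sorted controls, a difference of -0.05 ± 0.11 with a 95% interval from -0.31 to 0.21 (limma adjusted p = 0.746). Slc38a2, a glutamine and neutral amino acid transporter, had 73.7, 135 and 116 FPKM in the β-catenin libraries, against 157, 147 and 141 FPKM in the sorted controls, and the difference of -0.49 ± 0.22 did not pass (limma adjusted p = 0.13). The cystine transporter gene Slc7a11 stayed at or below 0.237 FPKM in all sorted libraries and was not tested.

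Of the 11 synthetases, 7 fell and the other 4 had negative differences that did not pass, with a median of -0.38. Gars (glycine) had 98.1, 98.0 and 95.8 FPKM in the β-catenin libraries, against 162, 146 and 147 FPKM in the sorted controls, and fell by 0.64 ± 0.07 (limma adjusted p = 0.00321). Iars (isoleucine) had 49.4, 77.4 and 64.9 FPKM in the β-catenin libraries, against 115, 93.1 and 97.8 FPKM in the sorted controls, and fell by 0.69 ± 0.18 (limma adjusted p = 0.0299). These were the largest falls of the class, and neither pair of groups overlapped. Yars (tyrosine) differed by -0.57, Tars (threonine) by -0.53, Lars (leucine) by -0.38, Nars (asparagine) by -0.31 and Eprs (glutamate and proline) by -0.25, with limma adjusted p between 0.0184 and 0.0471. Cars (cysteine) had 37.3, 56.2 and 59.7 FPKM in the β-catenin libraries, against 80.9, 67.5 and 71.6 FPKM in the sorted controls. Its ranges did not overlap, but the Cars difference of -0.54 ± 0.19 did not pass (limma adjusted p = 0.0701). It passed when library 244 was left out (limma adjusted p = 0.0363). Aars (alanine), Sars (serine) and Wars (tryptophan) differed by -0.30, -0.18 and -0.14 and did not pass. Eprs lost its call in 9 of 13 alternatives, with a limma adjusted p of 0.0568 without library 244.

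**Figure D3:**
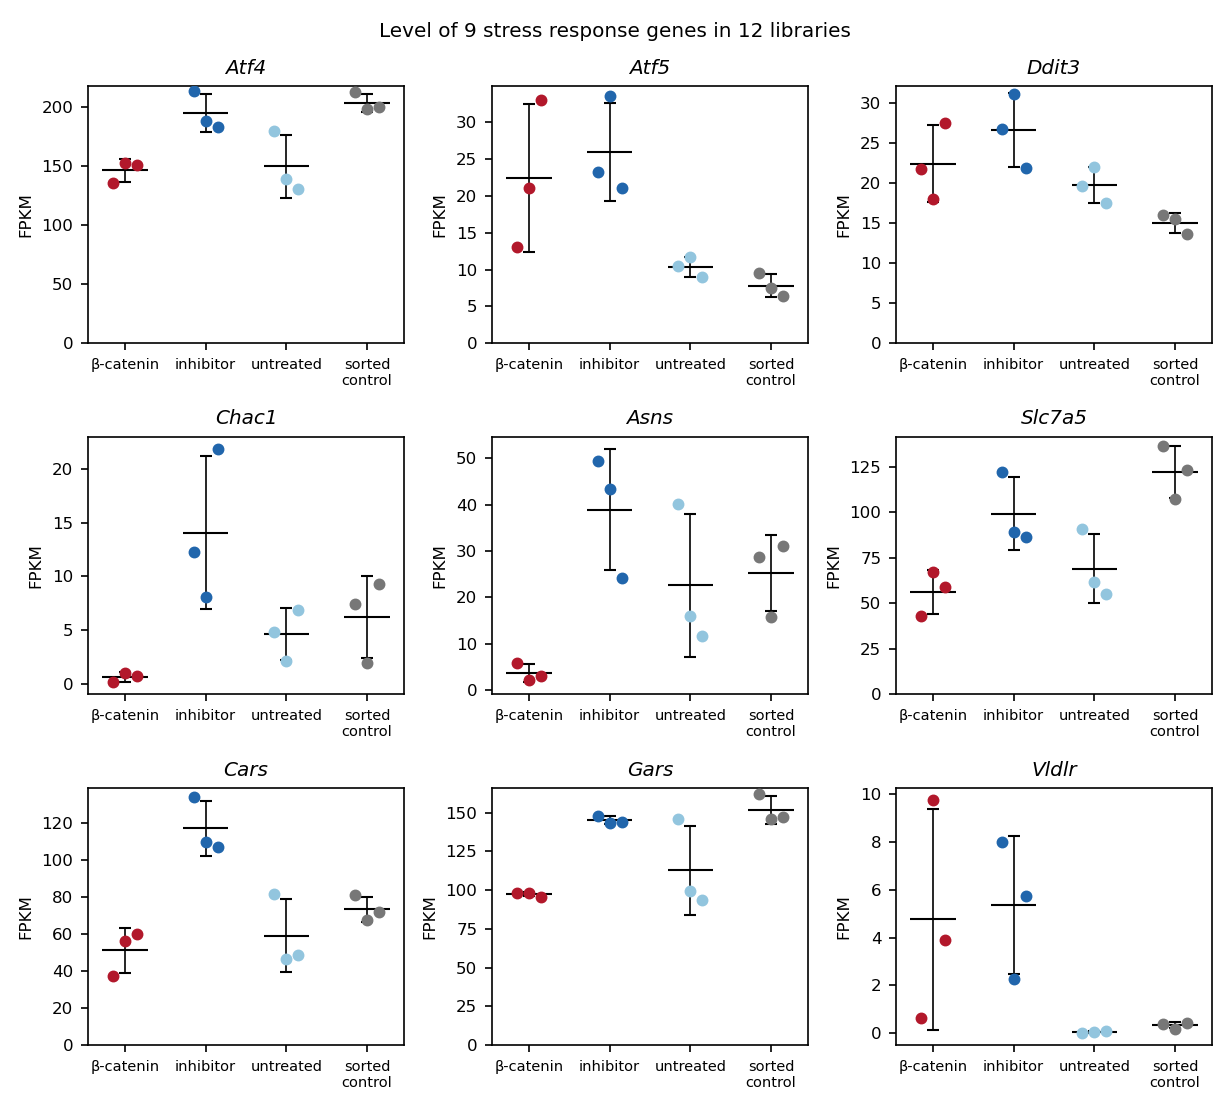
FPKM (y axes, from 0) of 9 genes in the β-catenin, inhibitor, untreated and sorted control groups. Points are libraries, horizontal lines group means and error bars 1 SD (n = 3). Asns and Chac1 are lowest in the β-catenin libraries and reach 49.4 and 21.9 FPKM with the inhibitor, whereas Atf5 and Vldlr are above their controls in both interventions.

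The second comparison asked what overnight inhibition of GSK3 did to the same genes in unsorted control cells. Most of them stood higher with the inhibitor, among them Atf5, Slc7a1 and Cars, while Pck2, Ddit4 and Wars fell. More genes passed when libraries were paired by number. Of 36 genes tested, 5 rose, 3 fell and 28 did not pass in limma, where 18.1% of 12685 genes passed, 8.47% higher and 9.6% lower. Vldlr was tested only through the inhibitor libraries, where it was high; without it 4 rose and 3 fell of 35 genes. The difference was positive for 28 of the 36 genes, with a median of 0.36, against -0.03 over all genes tested. Inhibitor and untreated libraries with the same number deviated together from their group means and were taken as paired. This check barely set number 251 apart: inhibitor library 251 correlated with untreated library 251 (r = 0.37) about as with 242 (r = 0.361). With the number as a block, 17 genes rose and 4 fell, where 30.1% of all genes passed, 14.1% higher and 16.0% lower. Within numbers, 23 of the 36 genes (63.9%) were higher in the inhibitor library of all 3 numbers and 5 (13.9%) were lower in all 3, against 28.4% and 32.3% of all genes tested. Regardless of number, the inhibitor libraries lay above all untreated ones for 11 of the genes and below them for 4, against 17.3% and 20.8% of all genes tested. Leaving out both unsorted libraries numbered 249 gave 5 higher and 2 lower of 34 genes tested. Among all 11679 genes tested there, 1111 were higher and 1254 lower. Chac1 and Slc3a2 then passed (limma adjusted p = 0.0213 and 0.0292), while Nars and Wars did not (limma adjusted p = 0.0849 and 0.0799). Leaving out 1 library, 10 genes were higher without untreated library 242, 3 without untreated library 249, and 2 without inhibitor library 242 or 251 or untreated library 251. In these fits 1087, 1601, 1023, 1147 and 1077 genes in all passed, higher or lower, against 2292 with all 6 libraries.

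Of the 5 transcription factors, Atf5 rose in both fits, and Atf4, Ddit3 and Nupr1 rose with the block. Atf5 had 23.2, 33.6 and 21.1 FPKM with the inhibitor, against 10.5, 11.7 and 8.99 FPKM in untreated cells. No libraries overlapped, and Atf5 rose by 1.22 ± 0.20 (limma adjusted p = 0.00939, and 0.000738 with the block). Atf4 had 213, 188 and 183 FPKM with the inhibitor, against 179.8, 139 and 130.1 FPKM in untreated cells, a difference of 0.39 ± 0.14 (limma adjusted p = 0.114, and 0.0172 with the block). Within numbers Atf4 was higher by 0.24, 0.44 and 0.49. Ddit3 had 26.8, 31.2 and 21.9 FPKM with the inhibitor, against 19.7, 22 and 17.5 FPKM in untreated cells, a difference of 0.41 ± 0.16 (limma adjusted p = 0.138, and 0.0327 with the block). Nupr1 had 3.57, 10.9 and 1.66 FPKM with the inhibitor, against 2.2, 4.44 and 0.458 FPKM in untreated cells, and passed with the block only (limma adjusted p = 0.453, and 0.024 with the block). The number with the most Nupr1 in both groups was 249, which also held the neutrophil marker RNA. Cebpb followed that number more than the treatment, with 1.73, 17 and 1.69 FPKM with the inhibitor, against 0.879, 21.0 and 4.26 FPKM in untreated cells (limma adjusted p = 0.91).

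Among the feedback genes, Vldlr had 8.01, 2.28 and 5.75 FPKM with the inhibitor, against 0, 0.045 and 0.0859 FPKM in untreated cells, a difference of 2.49 ± 0.38 (limma adjusted p = 0.00743, and 0.027 with no filter). No untreated library reached 1 FPKM, so the gene had to differ to be tested. In counted fragments the Vldlr values were 1203, 270 and 691 with the inhibitor, against 0, 6 and 10 in untreated cells. Chac1 had 12.3, 8.08 and 21.9 FPKM with the inhibitor, against 4.8, 2.09 and 6.92 FPKM in untreated cells. All 3 inhibitor libraries were above all untreated ones, by 1.19, 1.56 and 1.53 within numbers, and the difference of 1.43 ± 0.45 passed with the block (limma adjusted p = 0.0776, and 0.000858 with the block). Trib3 had 12.4, 13.0 and 7.16 FPKM with the inhibitor, against 11.8, 3.81 and 2.69 FPKM in untreated cells, with a difference of 0.92 ± 0.49 (limma adjusted p = 0.251, and 0.0448 with the block). Number 242, whose untreated library was the highest of the 3, differed least, by 0.07 within the number. Ppp1r15a had 12.4, 18 and 11.4 FPKM with the inhibitor, against 8.55, 9.42 and 9.12 FPKM in untreated cells (difference 0.55 ± 0.19, limma adjusted p = 0.0979, and 0.0403 with the block). Sesn2 had 9.84, 8.51 and 6.01 FPKM with the inhibitor, against 4.31, 6.37 and 5.24 FPKM in untreated cells. The ranges of Sesn2 overlapped and neither fit called it (limma adjusted p = 0.164, and 0.102 with the block). Ddit4 went the other way, with 77.8, 57.4 and 67.3 FPKM with the inhibitor, against 103, 88.3 and 127 FPKM in untreated cells, and fell by 0.64 ± 0.17 (limma adjusted p = 0.045, a call lost in 7 of 15 alternatives). Eif4ebp1 had 75.6, 68.2 and 53.4 FPKM with the inhibitor, against 72.2, 55.7 and 44.8 FPKM in untreated cells, and passed in neither fit (limma adjusted p = 0.559, and 0.161 with the block).

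The enzymes went in both directions. Asns had 49.4, 43.3 and 24.2 FPKM with the inhibitor, against 40.2, 16.0 and 11.6 FPKM in untreated cells. It was higher within each number, by 0.29, 1.38 and 1.004, and the difference of 0.89 ± 0.48 passed with the block (limma adjusted p = 0.256, and 0.0153 with the block). Mthfd2 had 137, 119 and 110.5 FPKM with the inhibitor, against 122, 85.6 and 62.8 FPKM in untreated cells, and also passed with the block (limma adjusted p = 0.218, and 0.0298 with the block). Pck2 had 36.6, 29.1 and 28.6 FPKM with the inhibitor, against 72.0, 50.2 and 58.6 FPKM in untreated cells, and fell by 0.91 ± 0.17 (limma adjusted p = 0.013). Psat1 had 92.2, 51.6 and 86.1 FPKM with the inhibitor, against 133, 92.3 and 102 FPKM in untreated cells, a difference of -0.53 ± 0.25 (limma adjusted p = 0.196, and 0.017 with the block). Pck2 and Psat1 were thus lower in the inhibitor libraries of all 3 numbers while Asns was higher. Phgdh, Psph, Shmt2 and Cth had differences between -0.18 and 0.20 and passed in neither fit.

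Of the transporters, Slc7a1 had 73.0, 54.7 and 56.0 FPKM with the inhibitor, against 39.0, 30.7 and 34.2 FPKM in untreated cells, and rose by 0.80 ± 0.15 (limma adjusted p = 0.0148). Slc3a2 had 174, 298 and 171 FPKM with the inhibitor, against 122, 132 and 81.3 FPKM in untreated cells. The ranges did not overlap, and the Slc3a2 difference of 0.91 ± 0.27 passed with the block (limma adjusted p = 0.0661, and 0.0028 with the block). Slc7a5, its partner, had 122, 89.2 and 86.1 FPKM with the inhibitor, against 90.4, 61.6 and 54.8 FPKM in untreated cells, with 0.53 ± 0.22 (limma adjusted p = 0.154, and 0.0052 with the block). Slc7a11 followed the number, with 0.139, 10.4 and 0.883 FPKM with the inhibitor, against 0.0986, 9.76 and 1.52 FPKM in untreated cells (limma adjusted p = 0.967).

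Among the synthetases, Cars had 134, 109.9 and 107 FPKM with the inhibitor, against 81.8, 46.7 and 48.4 FPKM in untreated cells, and rose by 1.02 ± 0.23 (limma adjusted p = 0.0266). Nars had 86.3, 78.2 and 77.0 FPKM with the inhibitor, against 66.4, 55.2 and 45.6 FPKM in untreated cells, and rose by 0.54 ± 0.15 (limma adjusted p = 0.0499, a call lost in 11 of 15 alternatives). Both genes were higher in every inhibitor library than in any untreated one. Aars and Sars did not pass without the block (limma adjusted p = 0.0653 and 0.108) and passed with it (0.0064 and 0.0491). They also passed in the fit of all 12 libraries (0.0406 and 0.0418) and without untreated library 242 (0.0295 and 0.0409), and Aars with quantile normalization (0.0441). Wars, which interferon induces in human cells, went the other way, with 46.6, 51.3 and 51.8 FPKM with the inhibitor, against 66.5, 64.2 and 62.2 FPKM in untreated cells, and fell by 0.36 ± 0.09 (limma adjusted p = 0.0347). That call was lost in 8 of 15 alternatives, among them leaving out any 1 of the 6 libraries, with a limma adjusted p of up to 0.124. The Cars call was lost in 5 of 15. The class had a median of 0.28, with 10 of 11 differences above 0.

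In the third comparison, unsorted untreated cells were set against sorted controls, both of control genotype. Sorting and the overnight culture cannot be told apart there. Of 32 genes tested, Ddit4 and Sesn2 rose and Slc7a5 and Slc7a1 fell, where 8.3% of 12513 genes passed in limma, 4.29% higher and 4.01% lower. Ddit4 differed by 0.81 ± 0.14 (limma adjusted p = 0.026) and Sesn2 by 0.76 ± 0.17 (limma adjusted p = 0.0418). Slc7a1 differed by -0.80 ± 0.12 (limma adjusted p = 0.021) and Slc7a5 by -0.84 ± 0.19 (limma adjusted p = 0.0416). Atf4 was below the sorted controls in all 3 untreated libraries, by 0.45 ± 0.13 on average, and did not pass (limma adjusted p = 0.0691). Without sorted control 251, 23 genes in all passed, against 1039 with all 6 libraries. All 4 calls were lost when any 1 of the sorted controls or untreated library 251 was left out. Without untreated library 242, 10 genes were lower, where 916 genes in all passed.

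The effects of the allele and of the inhibitor were then set against each other in 1 model of all 12 libraries. The tested quantity was the β-catenin effect (β-catenin minus sorted control) minus the inhibitor effect (inhibitor minus untreated). Of 36 genes tested, 11 were lower and 0 higher by this measure in limma (0 higher also at an unadjusted p under 0.05 and with voom), where 9.12% of 13861 genes passed, 3.05% lower and 6.07% higher. The median was -0.77 over the 36 genes and 0.00 over all genes tested, and 28 of the 36 differences were negative. Asns had the largest difference of effects, -3.43 ± 0.67 (limma adjusted p = 0.0145), followed by Chac1 with -3.42 ± 0.74 (limma adjusted p = 0.0216). The β-catenin effect on Asns was -2.54 and the inhibitor effect 0.89, and on Chac1 they were -1.995 and 1.43. For Atf4 the difference was -0.86 ± 0.17 (limma adjusted p = 0.0143), for Slc7a5 -1.66 ± 0.31 (limma adjusted p = 0.0126) and for Eif4ebp1 -2.08 ± 0.50 (limma adjusted p = 0.0301). The synthetases Cars, Gars, Iars, Nars and Aars and the transporter Slc7a1 completed the list, with differences from -1.56 to -0.80. Asns, Atf4, Slc7a5 and Gars passed in all 20 alternatives. The call was lost in 12 of them for Aars, in 11 for Iars and in 10 for Eif4ebp1. It was lost in 6 for Chac1, 5 for Slc7a1, 2 for Nars and 1 for Cars. Atf5 was nearest to equal effects, with a difference of 0.11 ± 0.41 and a 95% interval from -0.80 to 1.02 (limma adjusted p = 0.894). For Ddit3 it was 0.13 ± 0.24, with an interval from -0.41 to 0.66 (limma adjusted p = 0.775), and for Pck2 -0.31 ± 0.43 (limma adjusted p = 0.685). Without library 244, 10 of the genes were lower, and with the number as a block 14. Among all genes tested, 375 of 13592 and 549 of 13861 were lower there, against 423 in the main fit. Without β-catenin library 262 or inhibitor library 242 there were 5, and without sorted control 242 or 251 there were 6. Without inhibitor library 251 or untreated library 249 or 251 there were 7, and without untreated library 242 there were 17. In the fits with 5, 6 or 7, between 479 and 708 genes in all passed, higher or lower. Without untreated library 242 it was 1129, and with all 12 libraries 1264.

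**Figure D4:**
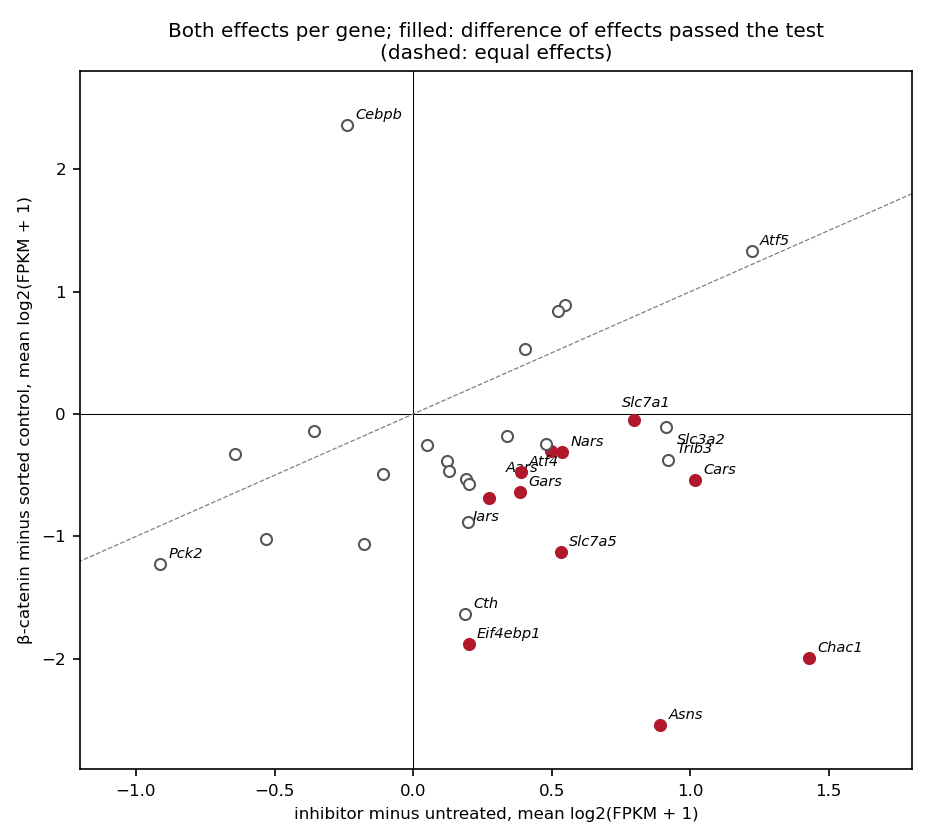
Effect of the allele (y axis, β-catenin minus sorted control) against the effect of the inhibitor (x axis, inhibitor minus untreated), each as a difference of mean log2(FPKM + 1), for the 33 genes tested in both comparisons. Filled points are the 11 genes whose effects differed in the test of that difference; they lie below the dashed line of equal effects, with Asns and Chac1 farthest from it.

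Other genes of the pathway give the surroundings. Of 15 genes for eIF2 kinases, eIF2 and its exchange factor, 6 fell and 0 rose in the β-catenin libraries in limma (1 was higher at an unadjusted p under 0.05, and 0 with voom). Among all genes tested there, 17.7% fell and 18.6% rose. The kinase gene Eif2ak4 (GCN2, which senses uncharged tRNA) had 8.69, 8.0 and 9.48 FPKM in the β-catenin libraries, against 18.2, 18.1 and 16.5 FPKM in the sorted controls, a fall by 0.94 ± 0.11 (limma adjusted p = 0.00321). Eif2ak3 (PERK, which senses unfolded proteins) had 38.8, 42.1 and 44.2 FPKM in the β-catenin libraries, against 62.7, 71.1 and 54.1 FPKM in the sorted controls, a fall by 0.57 ± 0.12 (limma adjusted p = 0.016). With the inhibitor it had 90.9, 61.3 and 107 FPKM, against 47.2, 40.7 and 58.3 FPKM in untreated cells, and the Eif2ak3 difference of effects was -1.36 ± 0.28 (limma adjusted p = 0.0181). Eif2s2 and Eif2b3 fell by 0.52 and 0.46 in the β-catenin libraries. With the inhibitor, where 18.1% of all genes tested passed, 1 gene of this list did, Eif2b2, which fell by 0.50 (limma adjusted p = 0.0115).

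Of 12 further ATF4 targets tested in the sorted libraries, 9 fell and 1 rose, against 17.7% and 18.6% of all genes tested. Bcat1, a branched-chain amino acid transaminase, had 1.98, 23.7 and 13.0 FPKM in the β-catenin libraries, against 74.0, 74.0 and 65.7 FPKM in the sorted controls, and fell by 2.84 ± 0.74 (limma adjusted p = 0.0305). It also fell with the inhibitor, to 18.9, 12.9 and 17.4 FPKM, against 56.6, 31.3 and 40.2 FPKM in untreated cells (-1.30 ± 0.24, limma adjusted p = 0.0142). Gpt2, mitochondrial alanine transaminase, had 1.13, 1.89 and 0.892 FPKM in the β-catenin libraries, against 8.83, 6.39 and 7.87 FPKM in the sorted controls, a fall by 1.93 ± 0.21 (limma adjusted p = 0.00297). With the inhibitor Gpt2 stood at 10.3, 6.61 and 5.01 FPKM, against 6.03, 3.33 and 3.45 FPKM in untreated cells, and its difference of effects was -2.57 ± 0.39 (limma adjusted p = 0.00517). The neutral amino acid transporter Slc1a5 had 254, 313 and 352 FPKM in the β-catenin libraries, against 767, 928 and 882 FPKM in the sorted controls, a fall by 1.49 ± 0.15 (limma adjusted p = 0.00227). The 1 gene of this list that rose was Atf3, a stress-induced repressor, with 3.28, 6.74 and 8.38 FPKM in the β-catenin libraries, against 1.29, 1.64 and 1.17 FPKM in the sorted controls (1.52 ± 0.31, limma adjusted p = 0.0144).

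Synthetases outside the 37 genes are set beside them. Of 9 remaining cytosolic synthetases, 5 fell in the β-catenin libraries (median -0.26), Farsb, Vars and Mars among them, and of 17 mitochondrial ones 5 fell (median -0.24), with Mars2 at -0.84 and Lars2 at -0.73. Among all genes tested there, 17.7% fell. With the inhibitor the medians were 0.28 for the 11 synthetases of the stress response, -0.05 for the remaining cytosolic and -0.12 for the mitochondrial genes. In the difference of effects they were -0.77, -0.15 and -0.09, with 5 of 11, 1 of 9 and 1 of 17 genes passing, against 9.12% of all genes tested. No test between these classes was made.

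**Figure D5:**
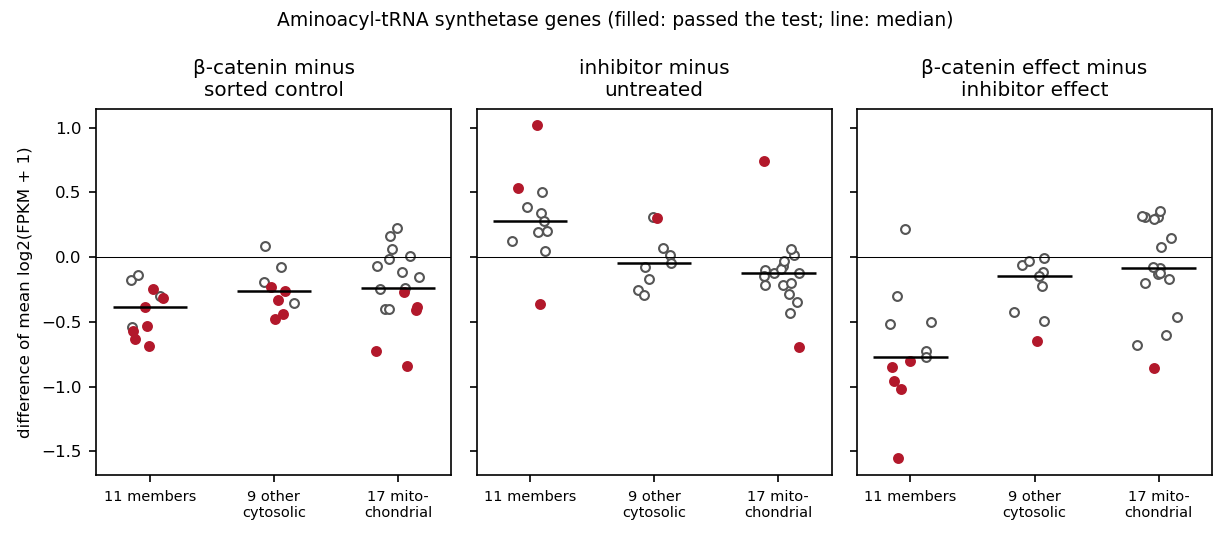
Difference of mean log2(FPKM + 1) (y axes) for 11 stress response synthetases, 9 other cytosolic and 17 mitochondrial synthetases, in the β-catenin comparison, the inhibitor comparison and the difference of effects. Points are genes, filled where they passed the test, and lines are class medians, which are -0.38, -0.26 and -0.24 in the first panel and -0.77, -0.15 and -0.09 in the last.

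The other arms of the unfolded protein response, which run through IRE1 and ATF6, were read from genes of chaperones, degradation and the sensors themselves. Of 18 such genes tested, 2 rose and 4 fell in the β-catenin libraries, and 3 rose and 6 fell with the inhibitor. Among all genes tested, 18.6% rose and 17.7% fell in the β-catenin libraries, and 8.47% rose and 9.6% fell with the inhibitor. Atf6 had 37, 33.7 and 34.4 FPKM in the β-catenin libraries, against 16.9, 16.7 and 15.5 FPKM in the sorted controls (1.05 ± 0.08, limma adjusted p = 0.00139). With the inhibitor Atf6 had 47.2, 34.8 and 49.0 FPKM, against 13.7, 15.5 and 17 FPKM in untreated cells (1.43 ± 0.16, limma adjusted p = 0.00224). Edem1, which hands misfolded glycoproteins to degradation, had 171, 344 and 364 FPKM in the β-catenin libraries, against 64.0, 61.2 and 51.9 FPKM in the sorted controls, and with the inhibitor 229, 238 and 207 FPKM, against 51.3, 87.7 and 52.0 FPKM in untreated cells. It rose by 2.22 and 1.85 (limma adjusted p = 0.00472 and 0.00241). Ern1, the gene of IRE1, rose with the inhibitor by 1.96 ± 0.24 (limma adjusted p = 0.00308). Syvn1, a ubiquitin ligase of the endoplasmic reticulum, fell by 1.69 in the β-catenin libraries and by 1.59 with the inhibitor (limma adjusted p = 0.00498 and 0.00278), and the chaperone gene Pdia6 fell in both as well. In the difference of effects 0 genes of this list passed in limma (2 at an unadjusted p under 0.05, and 0 with voom), against 9.12% of all genes tested. Of 7 tested targets of NRF2, the factor of the oxidative stress response that shares some genes with ATF4, 4 rose and 1 fell in the β-catenin libraries, where 18.6% and 17.7% of all genes did. Osgin1 led them with 35.3, 9.03 and 19.8 FPKM in the β-catenin libraries, against 0.471, 1.0 and 0.252 FPKM in the sorted controls (3.67 ± 0.48, limma adjusted p = 0.00431). Gclc, for glutathione synthesis, fell by 0.52 there and rose by 0.86 with the inhibitor, and its difference of effects was -1.38 ± 0.26 (limma adjusted p = 0.0134).

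Some of these values may hold reads of neighbouring genes. In GENCODE M21, exons of 11 of the 37 genes overlap those of another gene, all of them antisense (Atf5 with Nup62 and Il4i1, Ddit3 with Mars, Cebpb with Tmem189 and others), and for Aars and Ddit3 also on the same strand. The sources used here do not say whether counting used strand, so reads of such pairs cannot be told apart. Atf4, Asns, Chac1, Psat1, Slc7a5, Gars, Sesn2 and Vldlr have no such overlap.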

How the data were processed

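Per the labels, Novogene sequenced total RNA of 12 libraries, extracted with a Quick-RNA MicroPrep kit. The values are FPKM that the authors deposited in 1 table of 47069 Ensembl genes. Per the submitters' processing notes, HISAT2, HTSeq and Cufflinks were used with GRCm38 (mm10). For these tools the roles and versions, and for the counting the gene lengths and strandedness, were not given in the sources used here. FPKM divides by library totals and gene length, so a change in a few abundant genes shifts all others. No column of values was left out (0 columns). Since the deposited FPKM of a gene step by the worth of 1 fragment in each library, fragment counts could be recovered, for 25186 genes (0 failed, relative tolerance 1e-10), while 18793 genes stood at 0 everywhere and 3090 were above 0 in 1 library. Totals ran from 31.9 to 49.8 M fragments, a ratio of 1.56.

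Groups follow titles and genotype or treatment labels. Each comparison was a fit of its 6 libraries in limma 3.58.1 (lmFit, eBayes with trend; R 4.3.3, statmod 1.5.0) on log2(FPKM + 1), 2-sided, for genes reaching 1 FPKM in 3 or more libraries of the fit, with Benjamini-Hochberg adjustment over all of them and a threshold of 0.05. The difference of effects was a contrast in a model of all 12 libraries, with limma's duplicate correlation for the block on library number. The fits were also run on simulated counts with a fixed spread, no pairing and no mixture of cell types, unlike these libraries. The outcome is not given here and is no check of the calls above. Tables were made in Python 3.11.15 (pandas 2.3.3, numpy 2.4.6) and figures with matplotlib 3.10.9. The 37 genes and all other lists were chosen with earlier results of these data known, so no p was computed over a list. All 37 genes are named; of the other lists, up to 4 called genes with the largest change per comparison. Gene coordinates and overlaps come from GENCODE M21, and promoter windows from RefSeq GRCm38.p6; 1 promoter window is not reported here and was left out of the motif counts. Pairing by number was checked over 13861 genes, as the correlation between libraries of their differences from the group mean. Inhibitor and untreated libraries of the same number gave an r of 0.593 (number 242), 0.754 (number 249) and 0.37 (number 251), all over the threshold of 0.1, and were taken as paired. Unlike numbers also passed this threshold: inhibitor 251 with untreated 242 gave 0.361, and inhibitor 242 with untreated 251 gave 0.244. Pairs of 249 with another number were negative. Alternatives were voom on recovered fragments, median centring, quantile normalization, a filter at 5 FPKM or none, a pseudocount of 0.1, a fit of all 12 libraries, the block, and leaving out libraries.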

Additional observations from a re-analysis of the deposited data

Results flagged for a closer look

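The β-catenin effect differed from the inhibitor effect for 11 of the 36 genes tested, each time lying below it. This was by the test of that difference itself (limma, adjusted p under 0.05 over all genes, 3 libraries a group). Among all 13861 genes tested, 9.12% passed, 3.05% lower and 6.07% higher. On the log2(FPKM + 1) scale the differences were -3.43 for Asns, -3.42 for Chac1, -2.08 for Eif4ebp1, -1.66 for Slc7a5, -1.56 for Cars, -1.02 for Gars, -0.96 for Iars, -0.86 for Atf4, -0.85 for Nars, -0.85 for Slc7a1 and -0.80 for Aars. Of these calls, those of Aars, Iars and Eif4ebp1 were lost in 12, 11 and 10 of 20 alternatives. Those of Chac1, Slc7a1, Nars and Cars were lost in 6, 5, 2 and 1. The pair of interventions also differs in sorting, in culture overnight and in the cell type markers given above. The part of these in the differences was not tested.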

How the results depend on the processing

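Most counts kept to within 1.5 times under the other settings. In the β-catenin comparison (3 higher, 19 lower), no filter gave 1 higher and 12 lower, and all 12 libraries in 1 fit 5 higher. In the inhibitor comparison (5 higher, 3 lower) no filter gave 3 higher, all 12 libraries 9 higher and median centring 1 lower. Between untreated and sorted controls (1039 genes in all, 2 higher and 2 lower of the stress response genes), no filter gave 352 genes, 0 higher and 0 lower, a filter of 5 FPKM 1 higher, median centring 1 lower, and all 12 libraries 522 genes and 1 lower. For the difference of effects (1264 genes) no filter gave 808 and voom 611. No filter tests more genes; for the other settings the cause was not tested. Median centring moved the median of all genes in the β-catenin comparison to -0.14 and quantile normalization to -0.11, against -0.02, with 37% and 40.8% of calls higher, against 51.3%; in the difference of effects 51.9% and 55.3% were higher, against 66.5%.

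With the library number as a block, the paired inhibitor fit called 3816 genes, against 2292, and 17 higher, against 5. Between untreated and sorted controls the r of same-numbered libraries was 0.151, 0.124 and 0.0408, not all above 0.1, so the numbers were not taken as pairs. Still, each untreated library had its highest r with the sorted control of its own number, and unlike numbers gave at most 0.0115. The block gave 354 genes and 0 higher there. No paired analysis was possible because no number is shared in the β-catenin comparison. The block ended no call in the difference of effects and gave 14 lower. In that model it also joined sorted controls with unsorted libraries of the same number.

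Leaving out 1 library at a time gave 1535 to 5002 genes in all, 1 to 3 higher and 5 to 19 lower in the β-catenin comparison, 1023 to 2200 genes, 2 to 10 higher and 0 to 2 lower for the inhibitor, 23 to 1085 genes, 0 to 2 higher and 0 to 10 lower for untreated cells, and 479 to 1997 genes, 0 higher and 5 to 17 lower for the difference of effects. The lowest counts of genes in all came without sorted control 251 in the β-catenin, untreated and difference-of-effects fits and without inhibitor library 242 for the inhibitor. Among the β-catenin calls, Eprs reached an adjusted p of 0.167 in limma, Tars and Ddit4 0.141 and Pck2 0.131 in the least favourable setting, and 15 of the 22 calls were lost in at least 1 setting. Signs turned for genes that had not passed: leaving out 1 library, Trib3 ran from -0.747 to 0.003 (without 244) in the β-catenin comparison, Chac1 from -0.834 to 0.065 and 0.096, Asns from -0.787 to 0.07 and Slc3a2 from -0.267 to 0.08 in untreated cells, and the Ddit3 difference of effects from -0.027 and -0.001 to 0.269. It was -0.004 with median centring.

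Counts of other lists with the block and without library 244 were chosen after seeing the data. With the block, 5 NRF2 targets rose with the inhibitor, against 1, and 3 further ATF4 targets, against 0. Among all genes tested, 14.1% rose with the block and 8.47% without it.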
